A study of Homo sapiens with 16 samples.

Results

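The deletion of introns 19 and 20 from the long *EIF4G2* minigene was examined by direct RNA nanopore sequencing, in 1 library of the deletion minigene (Δint19+20, labelled delta_int19-20) and 1 library of the intact long minigene, out of 16 samples in the series. Both were expressed in HEK293T, an established line from human embryonic kidney, which is easily transfected and also transcribes its own *EIF4G2* gene. The long minigene holds exons 15 to 21 with introns 15 to 20 driven by the promoter of cytomegalovirus (CMV). Δint19+20 is the same construct without introns 19 and 20, so that exons 19, 20 and 21 follow intron 18 as 1 continuous block. The comparison asks what happens to intron 18 when its downstream introns were never in the transcript while the downstream exons are. The files list 854 *EIF4G2* reads for Δint19+20 and 1499 for long, within a range of 296 to 3362 reads over the 6 direct RNA libraries. Reads that covered exactly introns 15 to 20 were taken as the main set, 259 of 854 reads for Δint19+20 and 986 of 1499 for long. A second set shares no read with the first and holds the reads that start at intron 16, 17 or 18 and end at intron 20, 454 for Δint19+20 and 362 for long.

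During splicing, the spliceosome joins a 5′ splice site, at the upstream end of an intron, to a 3′ splice site that ends in AG and usually follows a stretch rich in pyrimidines. In exon definition, the factors bound at the 3′ splice site of one intron are stabilised across the exon by U1 snRNP at the next 5′ splice site downstream, whereas in intron definition the pairing is made across the intron. In direct RNA sequencing the polyadenylated RNA passes through the pore itself, from its 3′ end, so that no PCR step can favour a short product and a read that stops early lacks the 5′ part of the transcript. *EIF4G2* encodes a translation factor related to eIF4G.

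*EIF4G2* lies on the minus strand of chromosome 11, and all coordinates are from GRCh38. Intron 18 is 333 nt long (chr11:10799757-10800089, 36.0% G + C) between exon 18 (259 nt) and exon 19 (205 nt). The deleted introns 19 (127 nt, chr11:10799425-10799551) and 20 (99 nt, chr11:10799114-10799212) flank exon 20 (212 nt), and introns 15, 16 and 17 upstream are 126, 83 and 83 nt long. The sites below are printed because the deletion keeps the first pair and removes the other 4, with the GT that opens each intron and the AG that closes it in capitals.

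5′ splice site of intron 18, chr11:10800080-10800095: tcccagGTaagagaat
3′ splice site of intron 18, chr11:10799754-10799778: gcaggtggctttgtctcttcAGaaa
5′ splice site of intron 19, chr11:10799542-10799557: gactagGTaagacgaa
3′ splice site of intron 19, chr11:10799422-10799446: aacaagacctctttctgtccAGctt
5′ splice site of intron 20, chr11:10799203-10799218: caaaagGTgagaggac
3′ splice site of intron 20, chr11:10799111-10799135: tctttttttttttttttttaAGgca

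The 3′ splice sites of introns 18 and 19 each have 13 pyrimidines in the 20 nt before the AG, and that of intron 20 has 19. With the introns taken out of the reference, exon 19 runs directly into exon 20 and exon 20 into exon 21, as the joined sequences show with the first 3 bases of the downstream exon in capitals.

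Exon 19 to exon 20: cttaatgactagCTTcttacagta
Exon 20 to exon 21: acttcccaaaagGCAtgttacttc

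Neither join keeps a GT after the upstream exon, and exons 19 and 20 form a block of 417 nt, or 539 nt with the annotated exon 21. The plasmid itself was not analysed here.

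**Figure D1:**
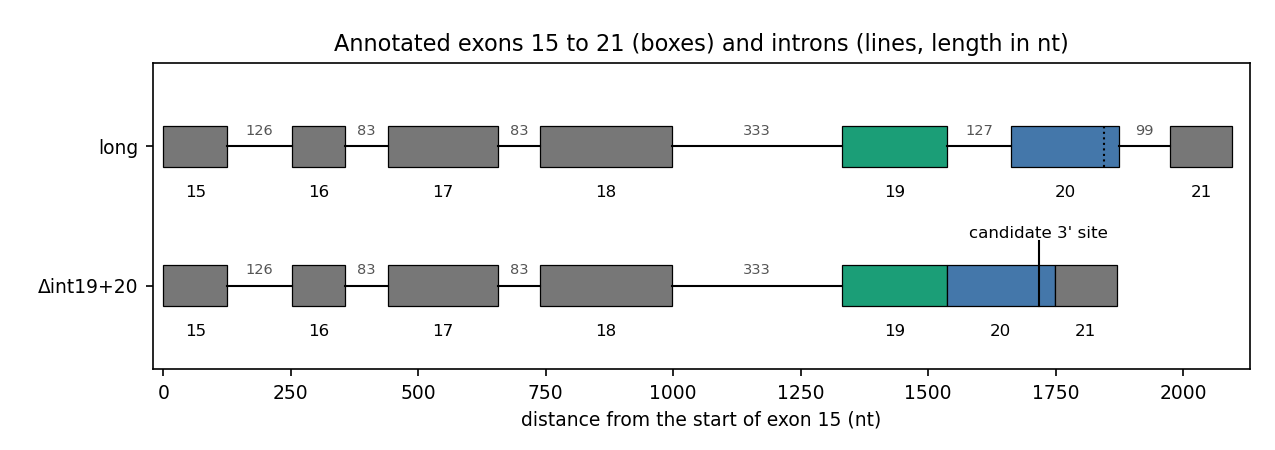
Exons 15 to 21 (boxes) and introns (lines, with their length in nt) of the long and Δint19+20 minigenes, drawn to scale from the annotation against the distance from the start of exon 15 in nt, with exon 19 in green and exon 20 in blue. The solid tick in Δint19+20 and the dotted line in long mark position 181 of exon 20, and intron 18 (333 nt) is the last intron left in Δint19+20.

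Each intron that a read covers was scored as excised, retained, skipped at the 3′ splice site, the 5′ splice site or both, or undetermined. Because reads of the deletion align to a genome that contains introns 19 and 20, an excised call at these introns in Δint19+20 is the deletion itself. Intron 19 and intron 20 were each retained in 0 of 259 main-set reads and in 0 of 454 second-set reads, which allows up to 1.16% and 0.661% (3 counts). In the main set of the long library, 11 of 986 reads retained intron 19 (1.12%) and 9 of 986 retained intron 20 (0.913%). Both shares are below 1.16%, so the main-set zeros do not contradict the label but cannot tell the 2 constructs apart. Percentages below are given with 95% Wilson intervals and differences with 95% Newcombe intervals, and since the reads carry no molecular identifiers these cover counting error only. The Fisher's exact tests are two-sided and compare the reads of 2 libraries, not the conditions, because each minigene was sequenced once and no replicate check exists.

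Intron 18 was almost never spliced with its annotated sites in Δint19+20, and its reads divided between retention and the use of another 3′ junction. Retention was seen in 147 of 259 reads, 56.8% (50.7% to 62.6%), an unused 3′ splice site in 106, 40.9% (35.1% to 47.0%), and excision in 6, 2.32% (1.07% to 4.96%). In long, 47 of 982 reads retained it, 4.79% (3.62% to 6.31%), 18 left its 3′ splice site unused, 1.83% (1.16% to 2.88%), and 838 excised it, 85.3% (83.0% to 87.4%). The remaining 79 long reads, 8.04%, used the 3′ splice site but another 5′ splice site, a class with 0 of 259 reads in Δint19+20, which allows up to 1.16%. Excision was thus lower in Δint19+20, with a difference of -83.0 percentage points (-85.4 to -79.5, Fisher's exact test, p = 4.22e-148 after Benjamini-Hochberg adjustment over 8 differences). Retention was higher by 52.0 points (45.7 to 58.0, exact test, adjusted p = 6.89e-76). An unused 3′ splice site was more frequent by 39.1 points (33.2 to 45.2, exact test, adjusted p = 2.60e-61).

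**Figure D2:**
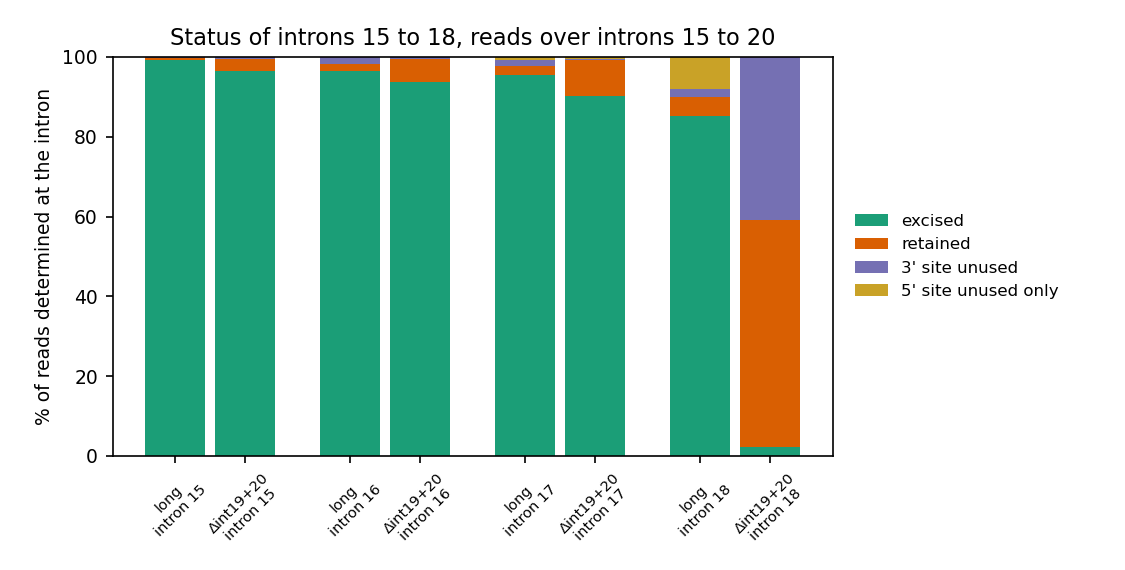
Percentage of the reads determined at each intron (y axis) that were excised, retained, without use of the 3′ splice site or without use of only the 5′ splice site, for introns 15 to 18 in the main sets of long (986 reads) and Δint19+20 (259 reads). Introns 15 to 17 were excised in most reads of both libraries, and excision of intron 18 was 85.3% in long and 2.32% in Δint19+20.

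The upstream introns 15 to 17 were largely spliced in both libraries, with a small excess of retention in Δint19+20 at each of them. Retention was found for intron 15 in 8 of 258 Δint19+20 reads (3.10%) and 5 of 986 long reads (0.507%), for intron 16 in 15 of 259 (5.79%) and 18 of 985 (1.83%), and for intron 17 in 23 of 259 (8.88%) and 22 of 986 (2.23%). The differences were 2.59 points for intron 15 (0.930 to 5.51), 3.96 for intron 16 (1.48 to 7.57) and 6.65 for intron 17 (3.55 to 10.8). Fisher's exact test gave adjusted p = 0.00173 for introns 15 and 16 and 6.68e-06 for intron 17. All of introns 15 to 17 were excised in 231 of 258 Δint19+20 reads (89.5%) and in 930 of 981 long reads (94.8%), a difference of -5.27 points (-9.77 to -1.73, exact test, adjusted p = 0.00359). Skipping of any of these introns was found in 3 of 258 reads in Δint19+20 (1.16%) and 25 of 981 in long (2.55%), a difference of -1.39 points (-2.80 to 0.961) that did not pass the test (Fisher's exact test, p = 0.337 after adjustment over 7 tests added once the values were seen). The excess at introns 16 and 17 was not found beyond counting error in the second set, where intron 16 was retained in 6 of 193 against 3 of 300 reads and intron 17 in 7 of 261 against 7 of 326. These differences were 2.11 points (-0.424 to 5.68, exact test, p = 0.205 adjusted over 5 differences) and 0.535 points (-2.08 to 3.50, exact test, adjusted p = 0.788).

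Retention of an upstream intron occurred together with retention of intron 18. In Δint19+20, 24 of 258 fully determined reads retained at least 1 of introns 15 to 17 (9.30%), and all 24 also retained intron 18. In long, 26 of 981 reads did so (2.65%), of which 25 retained intron 18 and 1 excised it. Among the Δint19+20 reads that did not retain intron 18, 0 of 111 retained an upstream intron, which allows up to 2.70%, and in long 1 of 934 did (0.107%). The abundant Δint19+20 classes could be set against each other, and intron 17 was retained in 23 of 147 reads with intron 18 (15.6%) and in 0 of 106 reads with the 3′ splice site unused (up to 2.83%), a difference of 15.6 points (9.55 to 22.4, exact test within this library, p = 2.07e-06). The same pairing in long gave 22 of 47 (46.8%) against 0 of 18 (exact test, p = 2.27e-04).

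The RNAs that retained intron 18 differed in make-up between the minigenes. In Δint19+20 most of them lacked every upstream intron, and 123 of 258 reads (47.7%) retained intron 18 only, against 22 of 981 (2.24%) in long, a difference of 45.4 points (39.3 to 51.6, exact test, adjusted p = 3.64e-72). Counted within the reads that retained intron 18, at least 1 of introns 15 to 17 was also present in 24 of 147 Δint19+20 reads (16.3%) and in 25 of 47 long reads (53.2%). This difference of -36.9 points (-51.3 to -21.3) passed Fisher's exact test (p = 1.12e-05 adjusted over the 7 added tests). By intron, the co-retained share was 15.6% against 46.8% for intron 17 (-31.2 points, -46.0 to -16.1, exact test, adjusted p = 1.37e-04) and 10.2% against 36.2% for intron 16 (-26.0 points, -40.8 to -12.4, exact test, adjusted p = 3.52e-04). For intron 15 it was 5.44% against 10.6%, and this difference did not pass the test (-5.20 points, -17.4 to 2.57, exact test, adjusted p = 0.363). In 12 of the 47 long reads (25.5%, 15.3% to 39.5%) intron 19 or 20 was retained as well, a class that the deletion removes from Δint19+20.

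Transcripts that still held all of introns 15 to 18 were rare in both libraries. They made up 6 of 258 Δint19+20 reads (2.33%) and 5 of 981 long reads (0.510%), and the 5 long reads retained introns 19 and 20 too. The difference was 1.82 points (0.389 to 4.49, Fisher's exact test, adjusted p = 0.0242). Between these transcripts and those with intron 18 alone, 8 Δint19+20 reads retained 2 of introns 15 to 18 (3.10%) and 10 retained 3 (3.88%). The corresponding long counts were 11 (1.12%) and 9 (0.917%), so that partly spliced reads with several introns were a small class in either library, and the reads with exactly 1 retained intron carried most of the contrast.

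The main set of Δint19+20 was dominated by 2 products. Of its 16 status combinations, the 2 most frequent held 216 of 259 reads (83.4%), and 7 combinations were seen once. The first was retention of intron 18 with introns 15 to 17 excised and the deletion joins intact, in 123 reads (47.5%, 41.5% to 53.6%), against 21 of 986 in long. The second, in 93 reads (35.9%, 30.3% to 41.9%), had introns 15 to 17 excised, the 3′ splice site of intron 18 unused, both sites of intron 19 absent from the read and the join of exons 20 and 21 intact, and 1 long read had this form. The next 4 held 8, 7, 6 and 6 reads, of which 3 combinations retained intron 18 with at least intron 17 and the other left both sites of intron 18 unused. Reads with every intron excised, the leading long combination with 816 of 986 reads (82.8%), numbered 5 in Δint19+20 (1.93%, 0.827% to 4.44%). The second long combination, use of another 5′ splice site of intron 18 with all other introns excised, held 78 long reads (7.91%) and 0 Δint19+20 reads. The libraries had 8 combinations in common, which held 92.7% of Δint19+20 reads and 86.9% of long reads. These shares rest mostly on forms that were frequent in 1 library and rare in the other. Complete excision had 816 long and 5 Δint19+20 reads, and the second Δint19+20 form had 93 reads against 1 long read. An excised call at introns 19 and 20 is the deletion in Δint19+20, so a shared combination is not the same splicing outcome.

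**Figure D3:**
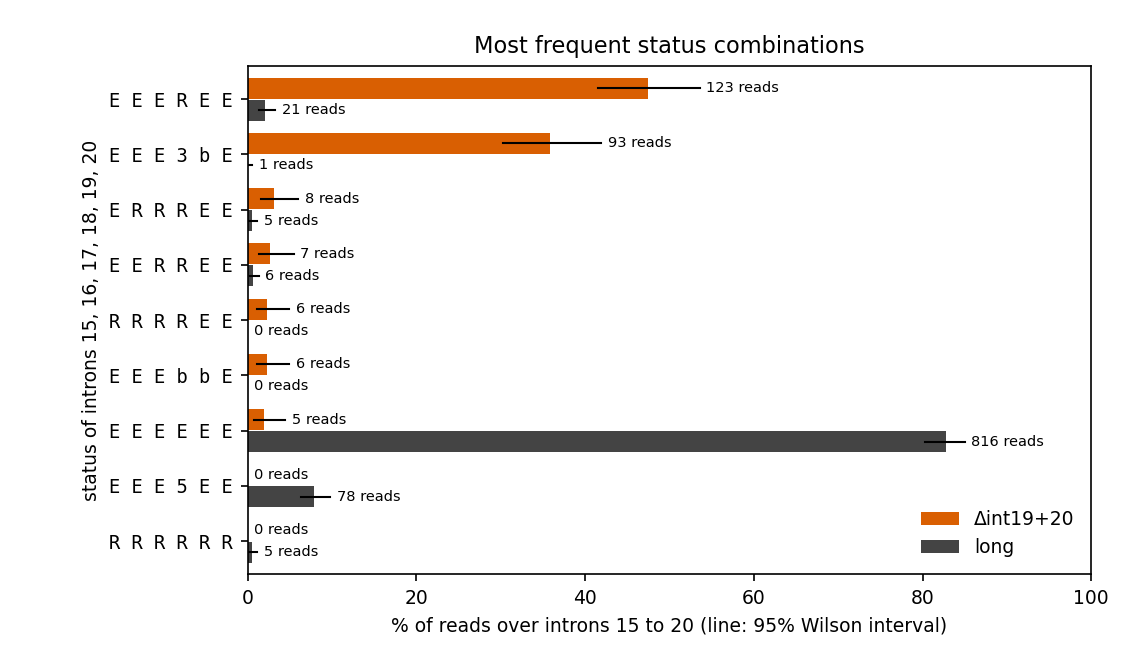
Percentage of main-set reads (x axis, with 95% Wilson intervals as lines and read counts printed) for each combination among the 6 most frequent of either library, and for complete excision in both, in Δint19+20 (orange) and long (grey). Letters give introns 15 to 20 in order, with E for excised, R for retained, 3, 5 and b for the 3′ splice site, the 5′ splice site or both unused; 2 combinations hold 123 and 93 of the 259 Δint19+20 reads, and complete excision holds 816 of the 986 long reads.

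The reads with an unused 3′ splice site were uniform downstream of intron 18. All 106 main-set reads of this class had both splice sites of intron 19 missing, so that exon 19 and the start of exon 20 were left out together, and 102 of them (96.2%, 90.7% to 98.5%) kept the join of exons 20 and 21. In the second set the corresponding numbers were 217 of 218 (99.5%) and 199 of 218 (91.3%, 86.8% to 94.3%). The upstream sequence was therefore joined inside exon 20 in nearly all of these reads, with 4 main-set and 19 second-set reads as exceptions, of which 1 had intron 19 scored as excised and the others had no scored join of exons 20 and 21. In long, the 18 reads with an unused 3′ splice site were mixed, as 9 left only the 5′ splice site of intron 19 unused, 6 left both of its sites unused and 3 excised intron 19.

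The counts do not record the base at which exon 18 was joined, and the study places it at a cryptic 3′ splice site in exon 20. A search of the transcript strand of the reference found 30 AG dinucleotides inside the 417 nt block, 13 in exon 19 and 17 in exon 20, leaving out an AG that ends exon 19 or exon 20. Of these, 2 have the form CAG followed by G, a frequent form of a 3′ splice site, at positions 88 and 181 of exon 20. The annotated 3′ splice sites of introns 18, 19 and 20 printed above do not have this form. The site at position 181 is the one that the study names for the reads of Δint19+20, and it is printed with its AG in capitals.

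Last CAG followed by G in exon 20, chr11:10799241-10799265: cagtgccctgtatgctctccAGgtg

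Its AG ends at position 181 of exon 20 (base 10799244), with 31 nt of the exon after it and 14 pyrimidines in the preceding 20 nt, against 13 before the annotated 3′ splice site of intron 18. The site at position 88 has 8. Among the 30 AGs the number of pyrimidines ranged from 6 to 16 with a median of 11.0, and 5 had 14 or more, with the highest at position 74 of exon 20. A junction at position 181 would span 719 nt in place of 333 nt and leave out 386 exonic bases. A match of letters is a description and shows no use of a site.

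No difference was detected in how often the annotated 5′ splice site of intron 18 was passed over. In Δint19+20, 8 of the 106 reads with an unused 3′ splice site also left the 5′ splice site unused (7.55%). In long, 79 of the 917 reads that used the annotated 3′ splice site left the 5′ splice site unused (8.62%). The difference of -1.07 points (-5.25 to 5.78) did not pass Fisher's exact test (p = 0.855 after adjustment). In the second set the values were 23 of 218 (10.6%) and 39 of 338 (11.5%), a difference of -0.988 points (-6.13 to 4.65, exact test, p = 0.783). Use of another 5′ splice site was thus seen beside both the annotated and the alternative 3′ junction.

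Normal excision was also rare in the second set, while the split between the alternatives depended on the treatment of undetermined reads. Intron 18 was excised in 7 of 373 determined Δint19+20 reads (1.88%, 0.912% to 3.82%) and in 299 of 358 long reads (83.5%, 79.3% to 87.0%), a difference of -81.6 points (-85.3 to -77.0, Fisher's exact test, p = 1.06e-131 adjusted over 5 differences). It was retained in 148 of 373 Δint19+20 reads (39.7%, 34.8% to 44.7%) against 15 of 358 (4.19%), and left its 3′ splice site unused in 218 (58.4%, 53.4% to 63.3%) against 5 (1.40%). The differences between libraries were 35.5 points for retention (30.0 to 40.8, exact test, adjusted p = 6.34e-34) and 57.0 for the unused 3′ splice site (51.7 to 62.0, exact test, adjusted p = 1.40e-74). Within Δint19+20, retention among determined reads was 17.1 points more frequent in the main set than in the second set (9.17 to 24.7, exact test, p = 7.46e-05 adjusted over 6 comparisons added once the values were seen). For the unused 3′ splice site the difference had the opposite sign, -17.5 points (-25.1 to -9.61, exact test, adjusted p = 7.46e-05). These values leave out 81 of 454 second-set reads (17.8%) that were undetermined at intron 18, against 0 of 259 in the main set. With those reads counted as retained, the difference in retention was 6.32 points (-1.30 to 13.8) and did not pass the test (exact test, p = 0.119 adjusted over 4 tests). With them kept in the denominator only, it was 24.2 points for retention (16.6 to 31.4, exact test, adjusted p = 1.44e-09) and -7.09 for the unused 3′ splice site (-14.5 to 0.508, exact test, adjusted p = 0.111). In long, retention, excision and the unused 3′ splice site differed between the sets by 0.596, 1.82 and 0.436 points, none of which passed the test (exact test, adjusted p = 0.812 for each).

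By the first intron of the read, the shares varied. Among determined Δint19+20 reads, intron 18 was retained in 56.8% of those starting at intron 15, 46.1% at intron 16, 31.5% at intron 17 and 33.6% at intron 18. An unused 3′ splice site was found in 40.9%, 51.3%, 68.5% and 64.5% of the same reads. Excision stayed at 0% to 2.59% whatever the first intron. The reads starting at intron 18 stand apart in that 79 of 186 (42.5%, 35.6% to 49.7%) were undetermined at that intron, against 3 of 34 in long (8.82%). With retained and undetermined reads summed, the share at that start was 61.8% (54.7% to 68.5%). Counting every undetermined read as retained, an alternative added once the values were seen, gave 229 of 454 second-set reads in Δint19+20 (50.4%) and 19 of 362 in long (5.25%).

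**Figure D4:**
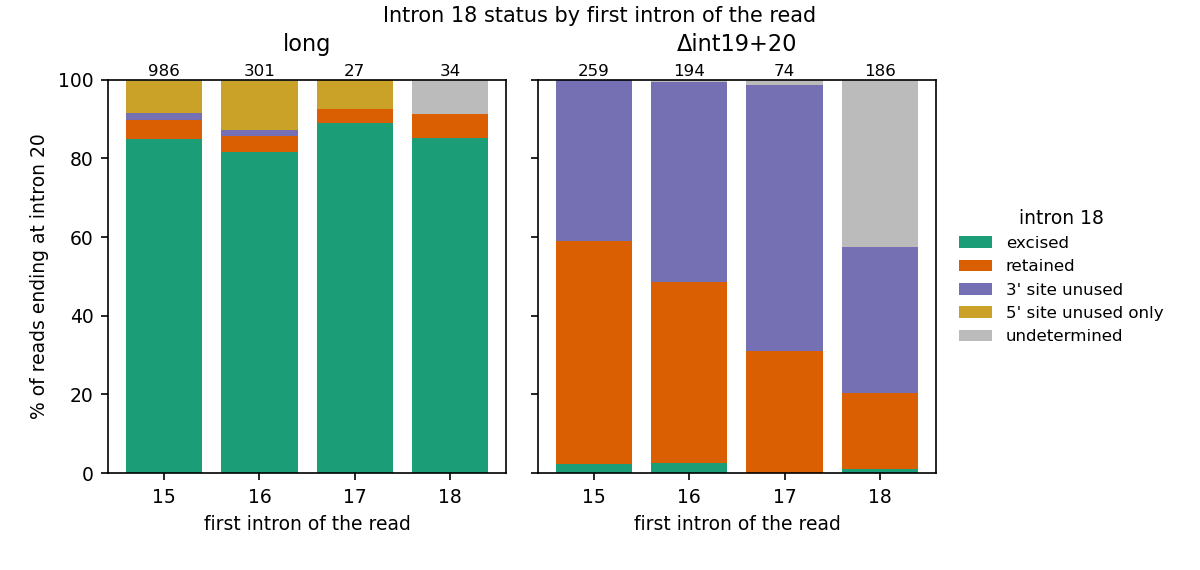
Status of intron 18 as a percentage of all reads that end at intron 20 (y axis), by the first intron of the read (x axis), in long and Δint19+20, with read numbers above the bars. Excision held 81.7% to 88.9% of long reads at every start, and in Δint19+20 retention went from 56.8% at intron 15 to 31.1% at intron 17, with 42.5% of reads undetermined at a start in intron 18.

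Fewer Δint19+20 reads reached the upstream end of the minigene. Of the reads that ended at intron 20, 259 of 774 started at intron 15 in Δint19+20 (33.5%) and 986 of 1371 in long (71.9%), a difference of -38.5 points (-42.4 to -34.3, exact test, p = 4.25e-67 adjusted over 4 tests of read start). Starts at intron 16 numbered 194 (25.1%) and 301 reads, and those at introns 17, 18 and 19 made up 9.56%, 24.0% and 7.88% of these Δint19+20 reads against 1.97%, 2.48% and 1.68% in long. The excess of incomplete reads lay mostly at the starts from intron 17 onward. Within Δint19+20, a start at intron 15 was more frequent among reads that retained intron 18 (147 of 295, 49.8%) than among those with the 3′ splice site unused (106 of 324, 32.7%), by 17.1 points (9.37 to 24.6, exact test, adjusted p = 3.96e-05). These are the reads of the comparison between the sets, arranged by status, and with undetermined reads counted as retained the shares were 147 of 376 (39.1%) and 32.7%, a difference of 6.38 points (-0.759 to 13.4) that did not pass the test (exact test, adjusted p = 0.111). Among reads that retained intron 18, the share starting at intron 15 was lower in Δint19+20 than in long (47 of 62, 75.8%), a difference of -26.0 points (-36.6 to -12.7, exact test, adjusted p = 2.99e-04). Among reads that excised it, 6 of 13 and 838 of 1137 started there (46.2% and 73.7%), which did not pass the test (exact test, adjusted p = 0.0505). The part of read completeness in the split between the 2 products was not tested, whereas excision was 2.32% in the main set and 1.88% in the second set.

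Transcripts of the cells' own gene gave a reference inside the same library. Reads that began upstream of intron 15 and ran through intron 21 extend beyond the minigene on both sides, and in the Δint19+20 library 12 of 13 of them excised intron 18 (92.3%, 66.7% to 98.6%) and 1 left its 3′ splice site unused. In the long library 24 of 25 did so (96.0%, 80.5% to 99.3%). The endogenous share in the Δint19+20 library exceeded that of the main set by 90.0 points (64.2 to 96.4, exact test, p = 8.82e-16). An endogenous read could be counted in either main set only if it covered neither the introns upstream of intron 15 nor intron 21. A read that stops early loses its 5′ part only, which would not by itself leave out intron 21. The study also reused its direct RNA flow cells, with a wash between samples, so reads could be carried over from another library. The part of endogenous or carried-over reads among the 6 excised Δint19+20 reads was not tested.

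Beside the other direct RNA minigenes, Δint19+20 had a low excision of intron 18 with a different mixture of outcomes. In the long minigene with a mutated 5′ splice site of intron 19 (mut 5′SS), intron 18 was excised in 40 of 1545 reads (2.59%), and the difference of -0.272 points from Δint19+20 (-1.82 to 2.46) did not pass the test (Fisher's exact test, p = 1 adjusted over 5 tests). Retention, at 107 of 1545 reads (6.93%), was lower there than in Δint19+20 by 49.8 points (43.6 to 55.8, exact test, adjusted p = 1.03e-73), and the 3′ splice site was unused in 1394 reads (90.2%), a difference of -49.3 points (-55.3 to -43.0, exact test, adjusted p = 6.59e-66). Of those 1394 reads, 1386 (99.4%) left only the 5′ splice site of intron 19 unused, the form in which exon 19 is skipped, and Δint19+20 cannot form this join because the deletion removes the 3′ splice site of intron 19. The short_1 minigene, which ends in exon 19 and so lacks the downstream exons as well as introns 19 and 20, was compared over reads of exactly introns 15 to 18. It excised intron 18 in 53 of 183 reads (29.0%), and the difference of Δint19+20 from it was -26.6 points (-33.7 to -20, exact test, adjusted p = 2.03e-16). Retention was 130 of 183 (71.0%), which gave a difference of -14.3 points (-22.9 to -5.17, exact test, adjusted p = 0.00337). The denominators are unlike, since 106 of the 259 Δint19+20 reads left the 3′ splice site unused, against 0 of 183 in short_1. With skipped reads left out, Δint19+20 retained intron 18 in 147 of 153 reads (96.1%), above the short_1 share. The sign of the difference in retention therefore depends on the denominator, and this second contrast was not tested. The short_1 library is the shallowest of the direct RNA libraries, with 296 reads. Of these, 31 covered exactly introns 15 to 20, although the construct lacks introns 19 and 20. Their origin, and the part of such foreign reads among the 183, was not tested. The unused 3′ splice site was not compared with short_1, because that construct lacks exon 20, where the other junction of Δint19+20 lies.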

How the data were processed

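HEK293T cells were transfected with a minigene, and polyadenylated RNA was sequenced directly on nanopores, 1 library per minigene. Per the labels and the study's methods, the authors aligned basecalled reads to GRCh38 with minimap2, kept uniquely mapped reads, scored each of the 21 *EIF4G2* introns from the alignment and deposited raw counts of reads per combination of statuses. The counts were not normalised. Reads were selected by their first and last intron, and reads undetermined at the intron measured were left out. A count of 0 is given with the share that 3 counts allow. Fisher's exact test (two-sided) was applied to shares at a threshold of 0.05, with Benjamini-Hochberg adjustment within each family, in Python 3.11.15 and SciPy 1.17.1, and plotted with matplotlib 3.10.9. The count of intron 18 retention in the main set and the coverage of the Newcombe interval were checked on simulated data. The exact tests and the other counts were not. Combinations were named when among the 6 most frequent of either main set or part of a tested class. The comparison, its read sets and its tests were chosen with earlier results of these data known, and the tests of read start, endogenous reads, other minigenes, one set against the other, and the 7 further tests between the libraries (co-retention within reads that retain intron 18, retention of all of introns 15 to 18, skipping, 5′ splice site use) were added once the values were seen. Alternatives changed the read set, the undetermined and skipped reads and the minimum count (2). Splice sites, lengths and AGs came from the reference genome and GENCODE annotation. AG was searched on the transcript strand only, and GT was printed at annotated intron starts without a search for others. RT-PCR libraries and those with an added part of intron 19 were not used.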

Additional observations from a re-analysis of the deposited data

Results flagged for a closer look

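Some reads that started at intron 15 or later ran on into intron 21, which lies downstream of the annotated exons of the minigenes, without excising it, and they enter none of the comparisons above. They numbered 39 of 854 in Δint19+20 (4.57%, 3.36% to 6.18%) and 50 of 1499 in long (3.34%, 2.54% to 4.37%), above the limit that a count of 0 allows. Of the 33 such Δint19+20 reads determined at intron 18, 0 excised it (up to 9.09%), 21 retained it (63.6%, 46.6% to 77.8%) and 12 left its 3′ splice site unused (36.4%, 22.2% to 53.4%). In long, 43 of 48 excised it (89.6%, 77.8% to 95.5%). Whether these reads come from the plasmid or the endogenous gene was not tested.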

How the results depend on the processing

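Of 52 alternative values, 50 kept the direction and the side of the threshold. Some of them could hardly change a result, since 0 of 259 Δint19+20 main-set reads were undetermined at intron 18. The exceptions were intron 16 retention, with a difference of 2.11 points, and intron 17 retention, at 0.535 points. Both arose in the second set, the only alternative set that shares no read with the main set, and the cause was not tested. For intron 18, the difference in retention ranged from 35.5 to 90.8 points, the highest with skipped reads left out (147 of 153 against 47 of 885 reads), excision from -90.8 to -79.6 and the unused 3′ splice site from 35.9 to 57.0. Excision moved to 18 of 289 Δint19+20 reads (6.23%) when reads extending beyond introns 15 to 20 were allowed, the setting that gave -79.6. This setting lets in the reads of the endogenous gene that ran from upstream of intron 15 through intron 21. Of those reads, 12 of 13 excised intron 18. Retention of introns 15 and 17 ranged from 2.58 to 2.66 and 0.535 to 7.06 points, complete excision of introns 15 to 17 from -5.27 to -4.96, intron 18 as the only one retained from 45.1 to 46.6, and intron 17 by intron 18 status from 14.8 to 15.8. Within Δint19+20, the difference in retention between the read sets fell from 17.1 to 6.32 points with undetermined reads counted as retained. No paired analysis was possible because each minigene has 1 direct RNA library. With 259 main-set reads, a class absent from Δint19+20 could still hold 1.16% of reads.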
